A study of Oryza sativa with 4 samples.

Results

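In rice leaves, 7 array probes of 21495 were examined whose transcripts changed strongly with nitrate in light-grown or in etiolated leaves and far less, or the opposite way, in the other. They were chosen by the log2 ratios of nitrate-treated over water-treated leaves in light and in dark, so those ratios are given as a description with no test. Each of the 7 was well above background in at least 1 kind of leaf. By the description on the array, A_71_P104181 (AK109149) is labelled rice root-specific RCc3, and A_71_P114063 (AK073571) resembles an Arabidopsis light repressible receptor protein kinase. The RCc3 description is shared by 3 other probes, so RCc3 is used below as a label and does not identify the gene. The other 5, A_71_P103328 (AK066217), A_71_P122651 (AK059180), A_71_P128422 (AK066271), A_71_P112305 (AK110629) and A_71_P117313 (AK100628), are described only as unknown expressed proteins. None of these 7 accessions was found in the RefSeq gene table used here, so no later gene name, position or sequence is given.

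Nitrate is both a nutrient and a signal in plants. Leaves reduce it to nitrite with nitrate reductase in the cytosol and then to ammonium with nitrite reductase in the plastid, and the genes of both enzymes are induced by nitrate. Light supplies the reducing power for these steps in green leaves, whereas leaves raised in darkness are etiolated, with plastids that hold no chlorophyll, and depend on stored reserves. RCc3 belongs to a family of small proline-rich cell wall proteins known in rice for expression in roots, and its promoter is used to direct transgenes there. Receptor protein kinases span the plasma membrane and pass on signals through an intracellular kinase domain, and the Arabidopsis relative was named for a transcript that light represses.

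The study asked how light changes the nitrate response. Seedlings of Oryza sativa indica var. Panvel, 8 to 10 days old, were grown without nutrients at 25 °C either under a 12 h photoperiod or in total darkness. They were given 120 mM nitrate for 2 h by the labels, the dark-grown ones in darkness, and the controls received water. The methods state a shorter treatment and a warmer growth chamber than the labels, and that leaves were cut and floated on potassium nitrate or water, so responses to potassium and to nitrate cannot be told apart. Each of 4 2-colour Agilent arrays carried nitrate-treated RNA beside water-treated RNA, 2 biological replicates for light and 2 for dark, with the dyes flipped between the replicates.

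Which channel of an array held the nitrate-treated RNA is not in the labels, which give the dyes alone. Channel 2 was read as nitrate on every array, which rests on a reading from outside the labels and is likely rather than stated. Under it, 4 of the 6 probes described as nitrate or nitrite reductase were higher with nitrate on all 4 arrays. Of these, A_71_P104314 (AK102178) had log2 ratios of 6.44 and 6.32 in light and 3.29 and 3.72 in dark. The opposite reading would turn the sign of every ratio of nitrate over water below, with its size kept, and would exchange the levels given for water-treated and nitrate-treated leaves.

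All 4 arrays were on 1 slide, with 75.5% to 79.0% of spots well above background in the nitrate channel and 75.7% to 77.8% in the water channel. The number of arrays limits the precision. In water-treated leaves, 12 of 16 chlorophyll a/b binding protein probes and 3 of 5 ribulose bisphosphate carboxylase small chain probes were lower in etiolated than in light-grown leaves by limma, with 1 and 0 higher. Their medians were -2.87 and -1.44 on the log2 scale, against 0.01 over all probes. Of the 2 protochlorophyllide reductase probes, which were listed as markers of etiolated leaves, 1 was lower and 0 were higher there, so this marker did not follow the label. Phytochrome A, the other such marker, was not among the probes counted here.

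Most signals of the 7 probes were either clear or at background. Of their 112 signals (spots in each channel), 51 were well above background, with processed signals of 31.5 to 591 intensity units. The software had replaced 41 of the other 61 with an error-based value, since the background-subtracted signals of these 41 were small or negative, from -11.6 to 4.83. The processed signals of these 41 ran from 5.18 to 13.0, whereas 13.2% of the signals of all probes had been replaced. A ratio against such a value has a size that the replacement sets. Folds written with "at least" below are taken against the lowest signal well above background on each array, or the probe's own level where higher. That lowest signal is no detection limit. The nitrate spots of A_71_P117313 on light replicate 2, for example, had processed signals of 43.9 and 40.2 without being well above background. These folds are thus not guaranteed minima, and "at least" marks only how they were reckoned. No signal of the 7 probes was saturated or an outlier.

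**Figure D1:**
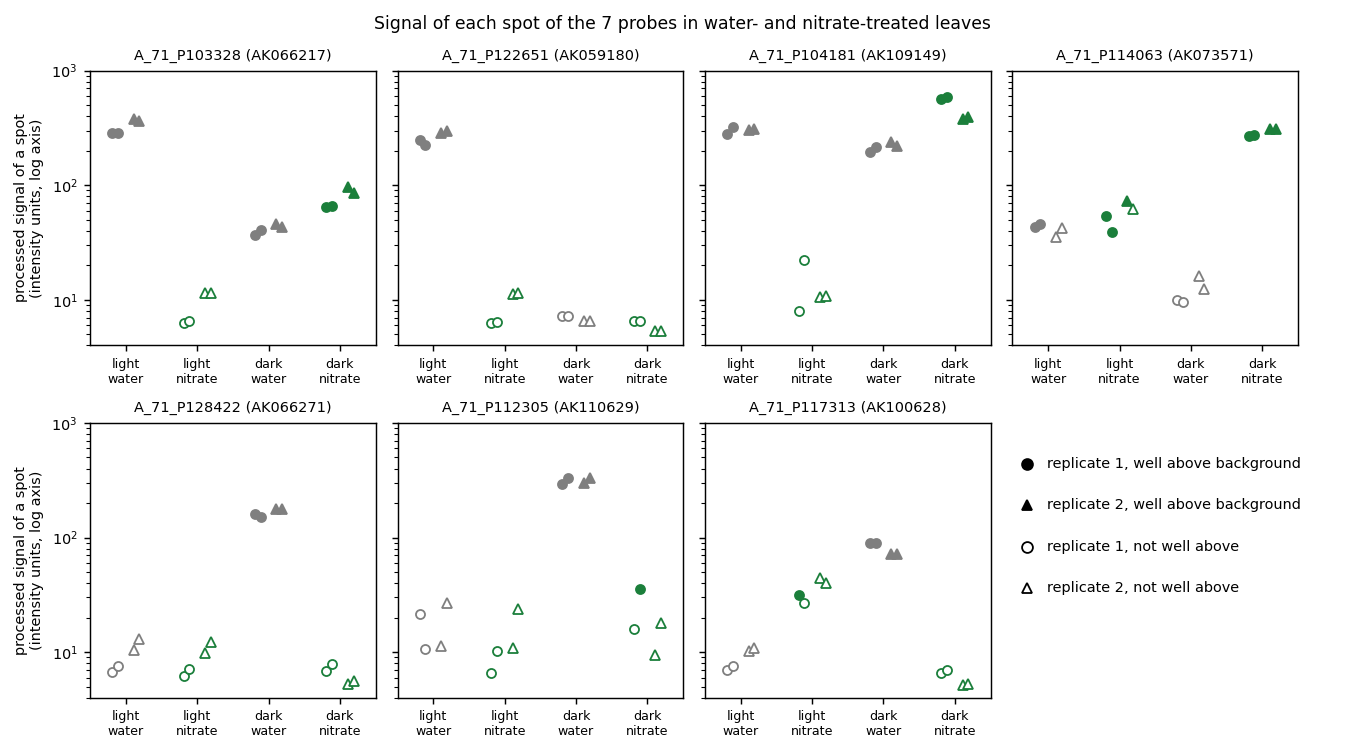
Processed signal of each spot of the 7 probes (intensity units, log axis) in water-treated (grey) and nitrate-treated (green) leaves, with circles for replicate 1, triangles for replicate 2 and filled symbols for spots well above background. The signals well above background lie between 31.5 and 591, and most open symbols lie far below them.

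In light, 4 of the 7 probes passed an absolute log2 ratio of 1 and limma's unadjusted p of 0.05, beside 3.74% of all 21493 probes tested. Of these 4, 3 were lower and 1 was higher with nitrate, beside 1.46% and 2.28%. In dark 5 of the 7 passed, beside 3.53%, 2 of them higher and 3 lower, beside 1.81% and 1.72%. The difference, dark minus light, passed the same thresholds for 7 of 7, beside 6.51%, with 4 above 0 and 3 below, beside 2.98% and 3.54%. The choice of the probes fixed these counts, and nothing is read from them. Over all probes, 33 (0.154%) passed in both conditions in opposite directions, 19 (0.0884%) lower in light and higher in dark and 14 (0.0651%) the other way, and A_71_P104181 and A_71_P117313 were 1 of each kind. With the p-values of limma adjusted by Benjamini-Hochberg, 67 probes passed in light, 48 in dark and 0 for the difference, for which 3377 had an unadjusted p of at most 0.05.

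**Figure D2:**
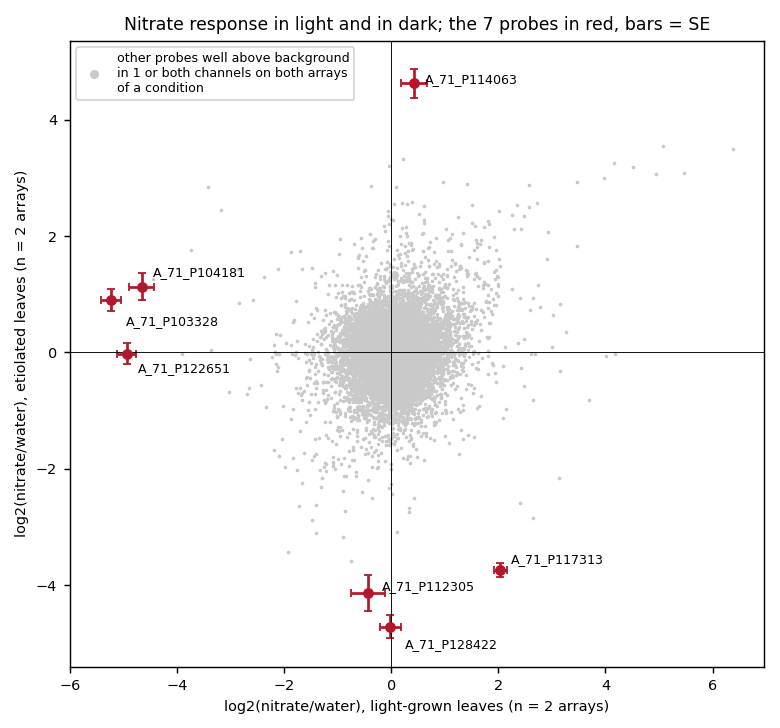
Log2 ratio of nitrate-treated over water-treated leaves in light-grown (horizontal axis) and etiolated leaves (vertical axis), each a mean of 2 arrays, with the 7 probes in red (bars, limma's SE) and other probes in grey. A_71_P103328, A_71_P122651 and A_71_P104181 lie at the far left near -5, A_71_P114063 alone at the top at 4.63, and A_71_P128422, A_71_P112305 and A_71_P117313 at the bottom near -4.

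The transcript described as RCc3 (A_71_P104181) was present in water-treated green leaves and at background after nitrate. Its normalized level, in linear intensity units after scaling between arrays, was 260.2 and 228 in the 2 water-treated light samples and 11.6 and 8.04 in the nitrate-treated ones. In etiolated leaves it was 271 and 277 with water and 769 and 468 with nitrate. Nitrate was thus the lower channel on both light arrays and the higher on both dark arrays, with no overlap. The fold was at least 16.6-fold lower with nitrate in light, where none of the 4 nitrate spots was well above background, and 2.19-fold higher in dark, where all were. The log2 ratios were -4.49 and -4.83 in light (-4.66 ± 0.23, limma's SE here and below, n = 2) and 1.51 and 0.76 in dark (1.13 ± 0.23, n = 2). This SE rests on 1 estimate of the spread, shared by the light and dark arrays of a probe. Where 1 condition holds only replaced values, which hardly vary, it understates the spread in the other. Without dark replicate 1 the value in dark was 0.76, under the threshold of 1.

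The unknown transcript A_71_P103328 behaved like RCc3 in direction but started from unequal levels. With water its normalized level was 249 and 274 in light-grown leaves and 48.1 and 55.1 in etiolated leaves. With nitrate it was 5.61 and 8.69 in light, where none of the 4 spots was well above background, and 81.7 and 113 in dark, where all 4 were. Nitrate therefore went with at least 17.8-fold less signal in light and 1.86-fold more in dark. The log2 ratios were -5.48 and -4.98 in light (-5.23 ± 0.19, n = 2) and 0.76 and 1.03 in dark (0.90 ± 0.19, n = 2). The value in dark was under the threshold of 1.

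The third transcript lost in light, A_71_P122651, was seen in only 1 of the 4 kinds of leaf. Its normalized level was 203 and 218 in water-treated light-grown leaves, and 5.48 and 8.55 there with nitrate, at least 14.3-fold lower. In etiolated leaves it was 7.40 and 7.53 with water and 7.40 and 7.31 with nitrate. All 8 spot signals in etiolated leaves were replaced values, so the log2 ratios of 0.00 and -0.04 in dark compare background with background, and no response in dark could be measured. In light the log2 ratios were -5.21 and -4.67 (-4.94 ± 0.18, n = 2). The SD of the ratios was 0.38 in light and 0.03 in dark. The SE is drawn from both and so understates the spread in light.

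The receptor protein kinase probe (A_71_P114063) was the 1 member that rose in the dark from background. Its normalized level in etiolated leaves was 12.2 and 17.6 with water, where none of 4 spots was well above background, and 343 and 383 with nitrate, where all 4 were. The nitrate samples were at least 21.1-fold higher. In light-grown leaves it was 39.1 and 28.9 with water and 40.1 and 51.3 with nitrate, so that the closest water and nitrate samples nearly met and the means differed by 1.35-fold. The log2 ratios were 4.81 and 4.44 in dark (4.63 ± 0.25, n = 2) and 0.04 and 0.83 in light (0.43 ± 0.25, n = 2). The water signal in light was well above background on 1 of 2 arrays, so this small ratio rests partly on dim spots.

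A pair of unknown transcripts showed the reverse, a signal in water-treated etiolated leaves that was at or near background with nitrate. For A_71_P128422 the normalized level in etiolated leaves was 189 and 221 with water and 8.95 and 6.76 with nitrate, at least 12.9-fold lower, with log2 ratios of -4.40 and -5.03 (-4.71 ± 0.20, n = 2). In light-grown leaves it was 7.35 and 7.98 with water and 7.34 and 7.79 with nitrate. All 8 of those light signals were replaced values, and the log2 ratios of 0.00 and -0.03 there compare background with background. This transcript was thus seen in 1 of the 4 kinds of leaf only, water-treated etiolated leaves. The SD of its ratios was 0.45 in dark and 0.02 in light. The SE above is drawn from both and so understates the spread in dark.

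For A_71_P112305, the other of this pair, the normalized level in etiolated leaves was 398 and 393 with water and 31.0 and 16.2 with nitrate. The fold of 17.6 rests on 1 nitrate spot of 4 that was well above background. The log2 ratios in dark were -3.68 and -4.60 (-4.14 ± 0.31, n = 2), the widest spread of the 7 probes in dark. In light-grown leaves the level was 13.5 and 13.3 with water and 7.70 and 12.8 with nitrate, none well above background, and the log2 ratios were -0.81 and -0.06 (-0.44 ± 0.31, n = 2).

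The unknown transcript A_71_P117313 had large ratios of opposite sign. In light-grown leaves its normalized level was 6.20 and 8.07 with water, all 4 signals being replaced values, and 25.6 and 33.0 with nitrate. In etiolated leaves it was 107 and 90.4 with water and 8.13 and 6.66 with nitrate, where all 4 signals were again replaced values. The log2 ratios were 2.05 and 2.03 in light (2.04 ± 0.13, n = 2) and -3.72 and -3.76 in dark (-3.74 ± 0.13, n = 2). Each of these ratios has replaced values in 1 channel, so the small SE does not measure how precisely the change in transcript is known. Nitrate was at least 6.21-fold lower in dark. In light it was 1.95-fold higher by the same reckoning, which is weaker still than a fold written with "at least". Only 1 of the 4 nitrate spots in light was well above background, a spot of light replicate 1. The rise in light was thus measured less firmly than the fall in dark.

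Behind each switch stands the level in water-treated leaves, which differed with the growth condition for all but 1 of the 7 probes. Between water-treated etiolated and light-grown leaves, 6 of 7 passed an absolute log2 difference of 1 and an adjusted p of 0.05 in limma's separate-channel analysis, beside 28.1% of all probes (14.2% higher and 13.9% lower in etiolated leaves). Since the water level is the denominator of the ratios that chose the probes, this count too is a description. In bulk leaf tissue, fewer cells with a transcript and less transcript per cell cannot be told apart.

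The probes that nitrate lowered in light were not alike in their water levels. A_71_P122651 was at least 12.4-fold higher in green than in etiolated leaves (etiolated minus light-grown -4.82 ± 0.21 on the log2 scale), and A_71_P103328 was 5.08-fold higher in green leaves (-2.34 ± 0.26). RCc3 (A_71_P104181) had 1.12-fold more in etiolated leaves (0.17 ± 0.28), a difference smaller than its SE. The nitrate ratio of A_71_P104181 thus had opposite signs in leaves whose water levels differed by less than that SE. Its processed signals before scaling were 280.4 to 322 in light and 194 to 237 in dark, and the difference ran from 0.07 to 0.26 under the alternatives tried.

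The 3 probes that nitrate lowered in the dark had a signal well above background in water-treated etiolated leaves and none in water-treated green leaves. In etiolated leaves A_71_P128422 was at least 13.7-fold higher (4.74 ± 0.17), A_71_P112305 at least 26.0-fold higher (4.88 ± 0.36) and A_71_P117313 at least 6.61-fold higher (3.80 ± 0.22). In these 3 the water-treated leaf with the signal was the one in which nitrate lowered it. A large fall needs a signal in water, so this match follows from the choice. The receptor protein kinase (A_71_P114063) was instead higher in water-treated green leaves, 1.96-fold by the same reckoning (-1.20 ± 0.25), although its rise with nitrate was in etiolated leaves. Only 2 of its 4 spots in water-treated green leaves were well above background, both on light replicate 1. This fold is weaker still than those written with "at least". The log2 difference was -0.98 without light replicate 1 and -0.93 without dark replicate 1.

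**Figure D3:**
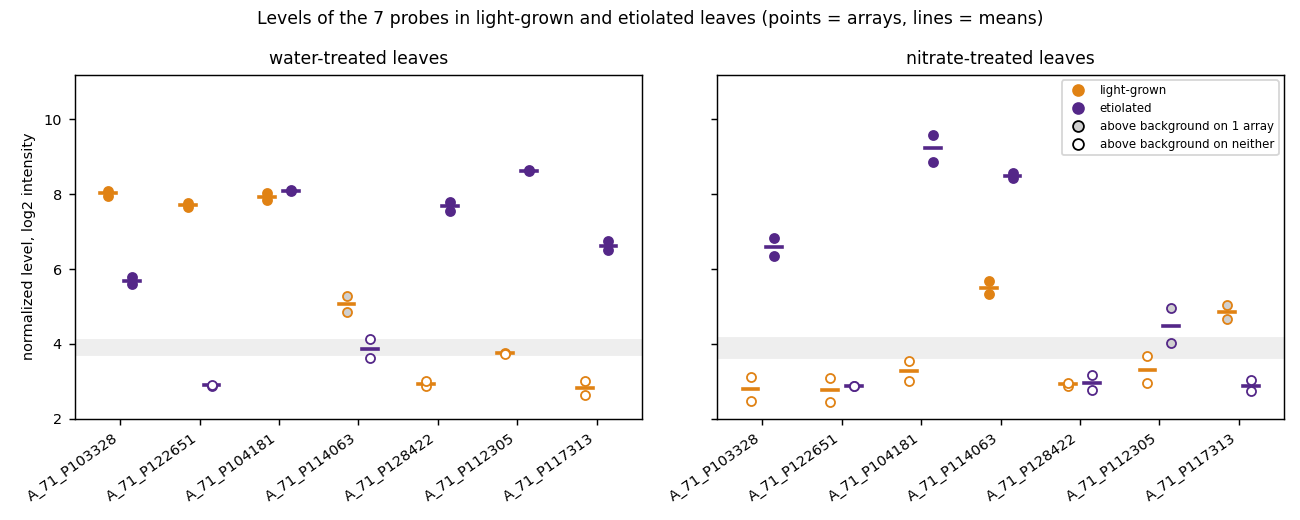
Normalized level (log2 intensity) of the 7 probes in water-treated (left) and nitrate-treated leaves (right), light-grown in orange and etiolated in purple, with a point for each array, a line at the mean of 2 and a grey band over the lowest signals well above background on the 4 arrays. In water, A_71_P104181 has its 2 groups close together, at 7.93 and 8.10, and the other 6 probes have theirs apart.

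After nitrate the order of green and etiolated leaves was another one for several of the probes. Between nitrate-treated etiolated and light-grown leaves 5 of 7 passed, beside 30.5% of all probes, 4 of them higher in etiolated leaves and 1 lower, beside 15% and 15.4%. The nitrate level is the numerator of the ratios that chose the probes, so this count is again a description. A_71_P103328 was at least 6.53-fold higher in nitrate-treated etiolated than nitrate-treated green leaves, the opposite of its order in water, and RCc3 (A_71_P104181) was at least 40.8-fold higher there. Neither fold is a guaranteed minimum. The receptor protein kinase was 7.99-fold higher in etiolated leaves, again the opposite of its order in water. A_71_P117313 turned the other way and was 1.83-fold higher in green leaves by the same reckoning. Only 1 of its 4 nitrate spots there was well above background, so this fold is weaker still than those written with "at least". A_71_P112305 had 31.0 and 16.2 in etiolated leaves, with 1 of 4 spots well above background, and 7.70 and 12.8 in green leaves with none, so that its order was not measured firmly. A_71_P122651 and A_71_P128422 were at background in both.

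The states of detection show which kinds of leaf gave each probe a signal. A large ratio in a dim probe needs 1 channel near background, so states unlike those of most probes follow from the choice and are a description. Of 21495 probes, 15210 (70.8%) were well above background in all 4 kinds of leaf on both arrays and 2910 (13.5%) in none. The state of A_71_P103328 and A_71_P104181, in which only nitrate-treated green leaves lacked a signal, was shared by 17 probes, these 2 included. Signal in water-treated green leaves alone, as for A_71_P122651, was found for 19 probes, and in water-treated etiolated leaves alone, as for A_71_P128422, for 8. More broadly, 55 probes (0.256%) lost their signal with nitrate on both arrays in light and 45 (0.209%) in dark, whereas 90 and 152 gained one. The states of A_71_P114063, A_71_P112305 and A_71_P117313, each with 1 kind of leaf above background on only 1 of 2 arrays, were shared by 14, 29 and 4 probes.

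Other probes with the same description as the 2 described members were tested by limma. The choice took probes with strong changes, so weaker changes in probes it passed over, these included, follow in part from it. Among 3 further RCc3 probes and 4 further receptor protein kinase probes, 2 of 7 passed the thresholds in light, 0 of 7 in dark and 1 of 7 for the difference, beside 3.74%, 3.53% and 6.51% of all probes. None of the 7 passed after Benjamini-Hochberg adjustment. At any fold, 4 of the 7 had an unadjusted p of at most 0.05 in light, 2 in dark and 1 for the difference.

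The RCc3 probe A_71_P123098 (AK062381) was lower with nitrate on all 4 arrays, without the change of sign seen at A_71_P104181. Its normalized level in light-grown leaves was 1023 and 779 with water and 330 and 411 with nitrate, and in etiolated leaves 3398 and 2779 with water and 2193 and 1633 with nitrate. The log2 ratio was -1.28 ± 0.21 in light (limma's adjusted p = 0.111, n = 2) and -0.70 ± 0.21 in dark (adjusted p = 0.263, n = 2). In water-treated leaves it was 3.44-fold higher in etiolated leaves by the separate-channel analysis of limma (1.78 ± 0.23, adjusted p = 0.00149).

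The RCc3 probe A_71_P123226 (AK063684) moved in both conditions by less than a log2 unit and against the direction of A_71_P104181. It was higher with nitrate on both light arrays (0.62 and 0.45) and lower on both dark arrays (-0.60 and -0.53). The difference, dark minus light, was -1.10 ± 0.19 in limma (adjusted p = 0.193). Its levels in water-treated leaves were 29280.2 and 43592 in light and 35902 and 36583 in dark, with a difference of 0.02 ± 0.23 (adjusted p = 0.96), and 1 of its spots was saturated. The third RCc3 probe, A_71_P109403 (AK062654), was at background in all 4 kinds of leaf. Paralogs can share signal where their sequences are close, and this was not tested.

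None of the 4 receptor protein kinase relatives repeated the rise of A_71_P114063 in the dark, where their log2 ratios ran from -0.28 to 0.45. In dark A_71_P109409 (0.45) and A_71_P122277 (-0.14) were not well above background in either channel. Their ratios there compare background with background. A_71_P122877 (AK111655) was higher with nitrate in light at 1.10 ± 0.29 (limma's adjusted p = 0.2, n = 2), with 0.29 ± 0.29 in dark. A_71_P101638 (AK109802) was at least 1.77-fold lower with nitrate in light, where both arrays had nitrate signals not well above background (fitted -0.97 ± 0.22, adjusted p = 0.165), and had -0.28 ± 0.22 in dark, and in water it was 1.91-fold higher in etiolated leaves (0.93 ± 0.18, adjusted p = 0.00808). For A_71_P122277 (AK099784), seen only in green leaves, the 2 water-treated replicates lay far apart, at 28.3 and 191. A_71_P109409 (AK100729) was at background throughout.

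**Figure D4:**
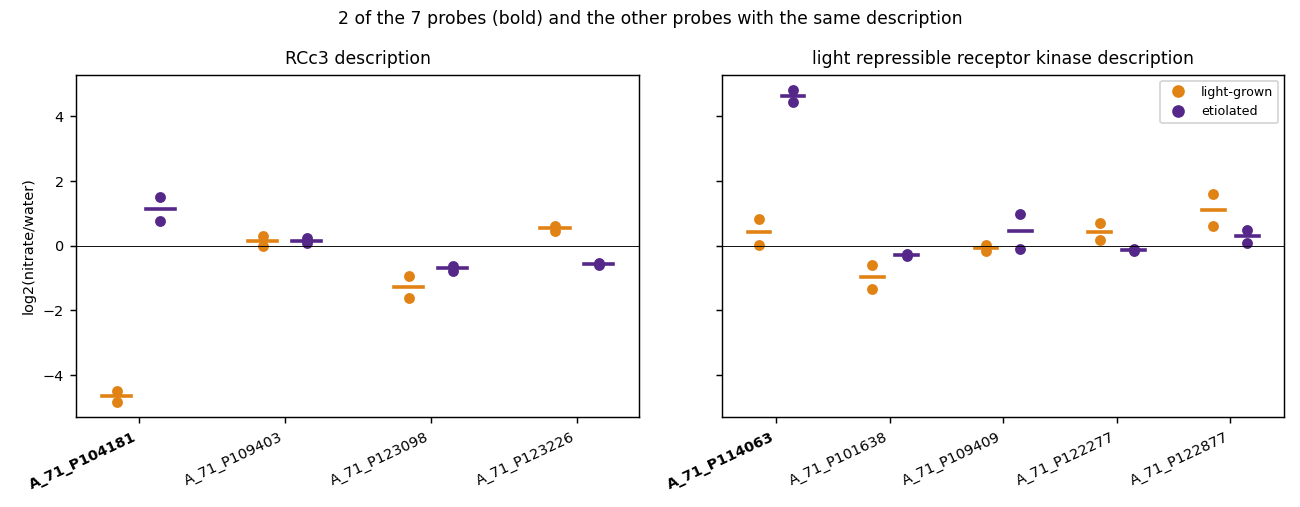
Log2 ratio of nitrate over water for A_71_P104181 and A_71_P114063 (bold) and for the other probes with the same description, in light-grown (orange) and etiolated leaves (purple), with a point for each array and a line at the mean. The ratios of the relatives lie between -1.63 and 1.60, far inside the -4.83 and 4.81 of the bold probes, which were chosen for strong changes.

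The described probes whose 4 ratios were nearest to each member were found by the Euclidean distance over the 4 arrays, among 13104 probes for members that switched in light and 12985 for those in dark. For RCc3 (A_71_P104181) it was A_71_P115641 (AK069464), described as a putative transcription factor of Vicia faba, at a distance of 0.38. That probe was at least 12.8-fold lower with nitrate in light and 2.41-fold higher in dark, and it was also nearest to A_71_P103328, at 1.46. Its water level was 3.50-fold higher in green leaves, as was the case in direction for A_71_P103328 but not for RCc3.

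For A_71_P122651 the nearest described probe was A_71_P106284 (AK064728), described as the maize tonoplast protein ZmTIP2-1, an aquaporin of the vacuole membrane, at 1.55. That aquaporin probe was at least 6.78-fold lower with nitrate in light and 1.02-fold lower in dark, where unlike A_71_P122651 it was well above background. For the receptor protein kinase it was A_71_P125014 (AK060981), a dormancy-associated protein, at 1.95, at least 6.30-fold higher with nitrate in dark and 1.16-fold higher in light. In water that neighbour was at least 20.5-fold higher in green than in etiolated leaves.

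A probe described by its likeness to an ankyrin, A_71_P124532 (AK099053), was nearest to both A_71_P112305 (1.21) and A_71_P128422 (2.02). It was 12.0-fold lower with nitrate in dark, at background in light, and at least 63.2-fold higher in water-treated etiolated than green leaves. These 2 members were closer to each other, at 1.16, than to any described probe. Likewise A_71_P103328 lay closer to the member A_71_P104181 (1.27), and A_71_P122651 to A_71_P103328 (1.38), than to any described probe outside the members. Closeness among members follows in part from the choice. For A_71_P117313 the nearest was A_71_P120316 (AK068483), like an Arabidopsis unknown protein, at 1.64, at least 3.51-fold higher with nitrate in light and at least 3.88-fold lower in dark. Likeness over 4 arrays is a description only, and much of it rests on dim signals.

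By the size of the difference between dark and light, among 17327 probes that had a signal above background on both arrays of light or of dark, the members ranked from 2 to 20. A_71_P103328 ranked 2 (6.13 ± 0.26), A_71_P104181 ranked 3 (5.79 ± 0.33) and A_71_P117313 ranked 4 (-5.78 ± 0.18). A_71_P122651 ranked 11 (4.92 ± 0.26), A_71_P128422 ranked 12 (-4.70 ± 0.28), A_71_P114063 ranked 16 (4.20 ± 0.35) and A_71_P112305 ranked 20 (-3.70 ± 0.44). Each of these differences involves at least 1 kind of leaf with a signal not well above background, so the replaced or dim values set part of its size and of its rank. Probes not listed stood between the members, so the list is not the top of this ranking.

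Several probes left out were as strongly switched. A_71_P103429 (AK107406) ranked 1, with log2 ratios of -3.43 in light and 2.84 in dark, opposite in sign like those of the member A_71_P117313. A_71_P126059 (AK105340, unknown) rose in light by 4.17 with -0.03 in dark, and A_71_P123814 (AK063367), described as rice LLS1, a protein that in maize guards against cell death lesions, had 3.69 in light and -0.82 in dark. Just above the last member lay A_71_P124203 (3.71 ± 0.32) and just below it A_71_P124408 (3.68 ± 0.23), the latter described as a laccase.

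The sizes of the ratios depended on how the background was handled, whereas the directions of those past a threshold did not. Of the 22 member values past a threshold in light, in dark, in the difference or in the water comparison, all 204 values under the alternatives tried had the same sign. Many of the 204 could not differ, since leaving out a dark array, for example, does not change a ratio in light. Fits without 1 array of a condition repeat the ratio of its other array. The count is therefore no measure of how firm the directions are. Under the normexp correction with an offset of 50, which adds that offset to every signal, 21 of 22 were smaller by over 1.5 times. A_71_P117313 then had 0.39 in light and -0.67 in dark, and A_71_P104181 had 0.75 in dark, each under the threshold of 1. In the water comparison A_71_P114063 had -0.31 in place of -1.20 and A_71_P117313 had 0.95 in place of 3.80, also under 1. Under normexp 3 of the 7 probes passed in light, 3 in dark and 7 for the difference.

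**Figure D5:**
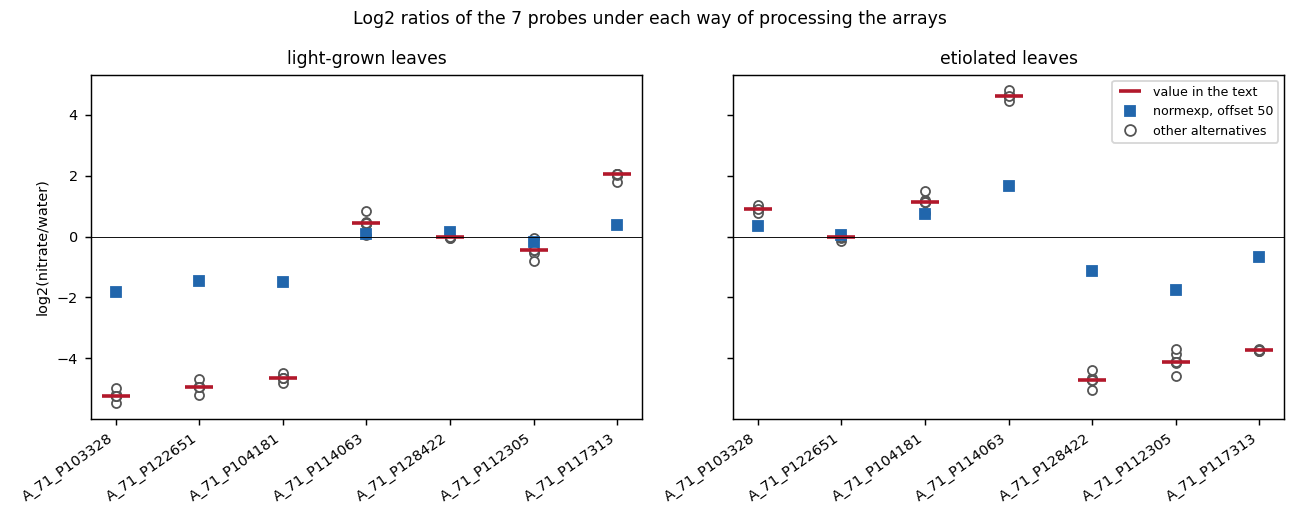
Log2 ratio of nitrate over water for the 7 probes in light-grown (left) and etiolated leaves (right), with a red bar for the value in the text, a blue square for the normexp correction with an offset of 50 and open circles for the other alternatives. For every ratio past the threshold the blue square lies nearest 0 and on the same side of it as the red bar, as for A_71_P103328 in light at -1.82 against -5.23.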

How the data were processed

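The authors deposited the scanner output of 4 2-colour arrays, holding each spot's intensity in both dyes and its log10 ratio, from Feature Extraction (9.5.3.1 in the file headers, another version in the methods), which had subtracted background, replaced signals not above it and balanced the dyes. They also deposited a table of normalized ratios, Lowess-normalized in GeneSpring, with 144 to 3004 probes missing per array, used as an alternative. From the processed signals, log2 ratios of nitrate over water were calculated, loess-normalized (span 0.3, 4 iterations) and averaged over 2 spots, without outlier and control spots. limma 3.58.1 in R 4.3.3 fitted all 4 arrays, with 1 coefficient per condition and 2 residual degrees of freedom. Levels came from a separate-channel fit after Aquantile scaling (statmod 1.5.0). Probes pass at an absolute log2 ratio of 1 and unadjusted p of 0.05, the methods' thresholds, or at an adjusted p of 0.05 for the water comparison. The script was tested on simulated data. Members and lists were chosen with earlier results of these data known. Named probes are the members, the reductase check, probes sharing a member's description, each member's nearest described probe and neighbours in rank. Nitrate transporters were counted as a check: of 15 probes, 1 rose in light and 1 fell in dark. Figures used matplotlib 3.10.9.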

Additional observations from a re-analysis of the deposited data

Results flagged for a closer look

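Among the members and their relatives, 5 probes moved one way on every light array and the other way on every dark array. The members were chosen for such differences, so their values are a description and no test of them is given. Dark minus light, the log2 values were 6.13 for A_71_P103328, 5.79 for A_71_P104181 and -5.78 for A_71_P117313. Among the relatives, the RCc3 probe A_71_P123226 gave -1.10, with limma's adjusted p of 0.193. The receptor protein kinase relative A_71_P122277 gave -0.57, with limma's adjusted p of 0.38, and its signals in the dark were not well above background.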

How the results depend on the processing

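Under the normexp correction the numbers of probes passing were 271 in light (803 otherwise), 222 in dark (759), 501 for the difference (1400), 3874 for the water comparison (6030) and 1 of 7 relatives in light (2). Leaving out each array in turn gave 799 to 1098 in light, 777 to 1468 in dark, 1241 to 2286 for the difference, 5223 to 6009 for the water comparison and 1 to 2 relatives in light. The counts of 1468 and 2286 were without dark replicate 2, and the 1 relative without light replicate 2. The cause was not tested. The ratios of the replicate arrays correlated at r = 0.449 in light and 0.462 in dark. Between conditions r was -0.00792 for the replicate 1 arrays and 0.317 for the replicate 2 arrays. For arrays of unlike dye orientation it was 0.12 (light replicate 2 with dark replicate 1) and 0.0145. The replicate numbers share only a dye orientation, and same-numbered arrays deviated together at r = 0.122. With this replicate block, 806 probes passed in light, 763 in dark, 1452 for the difference and 5544 in water, 4, 5 and 7 members passed as before, and 0 probes passed after adjustment in any of the nitrate comparisons. After adjustment the counts ran from 0 to 806 in light, 0 to 598 in dark and 0 to 243 for the difference over all settings at any fold. Median centring, the scanner software's own log ratio, the deposited ratios, the filter on dim probes and the other scalings kept the counts by unadjusted p, and the water count, within 1.5 times, but not the adjusted nitrate counts. In light the adjusted count of 67 became 330 with median centring, 0 with the software's ratio, 475 with the deposited ratios and 724 with the filter, and in dark the count of 48 became 287, 0, 388 and 598. Some member values could not be given under the filter or in the deposited table, which holds 5 of the 7 for the difference. Water fits without 1 array kept the correlation of the full fit.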
